A study of Mus musculus with 21 samples.

Results

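The 9 genes Batf, Batf3, Jun, Junb, Jund, Fos, Fosl2, Irf4 and Irf8, chosen by name from the 23415 genes of the table, encode BATF factors, AP-1 subunits and the IRF proteins that bind with them. All 9 passed the filter on low values and were among the 9592 genes tested. Their transcripts were measured in naive CD4 T cells (CD44low, CD62Lhi, CD25-) from spleen and lymph nodes. The donor mice were Il23r wt/eGFP heterozygotes, with an eGFP reporter in the locus that encodes the receptor for IL-23. The reporter allele is a functional knockout of Il23r, and every group carried 1 copy of it beside the wild-type allele. The cells were activated with plate-bound antibodies to CD3 and CD28 for 5 days with IL-12 alone (20 ng/ml), IL-12 with IL-21 (20 ng/ml each), IL-1b and IL-23 (20 ng/ml each) with IL-6 (25 ng/ml), or TGF-b (2 ng/ml) with IL-6 (25 ng/ml), and then sorted as eGFP-negative (GFPneg) or eGFP-positive (GFPpos). IL-12 alone was analysed as GFPneg cells, and the other 3 cultures in both gates, which makes 7 groups and 21 libraries. No age or number of animals was given in the labels, and nothing in them says that replicates came from separate mice or cultures, so p-values measure the spread between these libraries, which may be technical.

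Values are TPM, a transcript's share of the library, scaled by transcript length. Levels of different genes can be set side by side only roughly, since the annotation behind the values is not given. Ratios and shares between genes therefore describe the listed values. Of the 21 libraries, 16 had at least 7000 genes at 1 TPM or more and were used: 2 for IL-12 GFPneg, 2 for IL-12+IL-21 GFPneg, 3 for IL-12+IL-21 GFPpos, 3 for each gate of IL-1b+IL-6+IL-23, 2 for TGFb+IL-6 GFPneg and 1 for TGFb+IL-6 GFPpos. They held 7522 to 9248 genes at 1 TPM or more, and the 5 left out held 190 to 5608. Read totals are not known from TPM, so no counting interval can be given. With all 21 libraries fitted, none of the 9 genes passed a test between groups, and the share of all genes that passed was not counted. Il23r itself was at 24.2 to 36.4 TPM for IL-12+IL-21 GFPpos, 21.7 to 38.9 TPM for IL-1b+IL-6+IL-23 GFPpos and 3.57 TPM in TGFb+IL-6 GFPpos libraries, each above the GFPneg libraries of its culture (at most 6.36, 7.56 and 0.87 TPM). The 8 T cell markers summed to 1622.3 to 2176.7 TPM in the 6 IL-1b+IL-6+IL-23 libraries and to 2225 to 3180.6 TPM in the other 10. Of these 8 markers 6 varied between groups by limma's moderated F (adjusted over all genes), as did 24.9% of all genes. The 6 B cell markers summed to at most 0.94 TPM and the 8 myeloid markers to at most 2.52 TPM, with Pax5, Blnk, Lyz2, Spi1, Adgre1, Fcer1g and Tyrobp among those at 0 in all 16 libraries. Dendritic cell markers summed to 2.9 to 12.7 TPM, most of it Xcr1, with Clec9a and Itgax at 0, and CD8 T cell and NK markers to 5.61 to 17.7 TPM, most of it Cd8b1, with Ncr1 and Klrb1c at 0.

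AP-1 is a family of dimers of basic leucine zipper proteins. JUN, JUNB and JUND pair with FOS proteins, among them FOS and FOSL2, or with BATF and BATF3, which carry the zipper but lack the activation domain of FOS. Dimers of BATF with JUN proteins recruit IRF4 or IRF8 to joint elements of an AP-1 and an IRF site, and in activated CD4 T cells BATF and IRF4 are known as pioneer-like factors needed for Th17 differentiation. IRF8 is best known from myeloid cells and B cells, and BATF3 from dendritic cells.

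Fos and Batf lie on the same strand of chromosome 12, with 209.4 kb between the end of Fos and the start of Batf in GRCm38 (GENCODE M21). Between them lies Jdp2, another AP-1 gene, which ends 46.8 kb before Batf and was listed at 0 TPM in all 16 libraries. Batf itself spans chr12:85686669-85709087, Irf8 chr8:120736358-120756694, Irf4 chr13:30749226-30766976 and Batf3 chr1:191097847-191108945, all on the plus strand. Junb and Jund are also on chromosome 8, Jun on 4 and Fosl2 on 5. The bases upstream of the start sites of Irf8, Batf, Jun and Fos are shown because Irf8 and Batf differed most between cultures by the F statistic, and Jun and Fos are the members that moved together with the replicate number (RefSeq, GRCm38.p6, 5′ to 3′ on the gene's strand, up to the start site, for Batf the earlier start of GENCODE).
Irf8, chr8:120736108-120736357, plus strand: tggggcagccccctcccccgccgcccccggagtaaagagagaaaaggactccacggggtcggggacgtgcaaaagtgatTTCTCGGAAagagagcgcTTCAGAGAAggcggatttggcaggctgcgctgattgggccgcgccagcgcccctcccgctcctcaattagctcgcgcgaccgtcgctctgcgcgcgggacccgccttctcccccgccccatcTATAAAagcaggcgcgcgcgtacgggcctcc
Batf, chr12:85686470-85686668, plus strand: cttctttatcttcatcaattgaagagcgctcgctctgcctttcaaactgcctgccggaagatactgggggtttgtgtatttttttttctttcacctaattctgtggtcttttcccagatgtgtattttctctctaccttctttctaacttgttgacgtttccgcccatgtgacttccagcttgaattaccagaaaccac
Jun, chr4:95052223-95052472, minus strand: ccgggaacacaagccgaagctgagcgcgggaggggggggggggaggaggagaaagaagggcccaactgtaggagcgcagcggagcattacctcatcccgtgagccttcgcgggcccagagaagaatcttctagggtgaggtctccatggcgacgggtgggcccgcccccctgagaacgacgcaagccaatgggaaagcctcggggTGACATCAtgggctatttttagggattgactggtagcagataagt
Fos, chr12:85473640-85473889, plus strand: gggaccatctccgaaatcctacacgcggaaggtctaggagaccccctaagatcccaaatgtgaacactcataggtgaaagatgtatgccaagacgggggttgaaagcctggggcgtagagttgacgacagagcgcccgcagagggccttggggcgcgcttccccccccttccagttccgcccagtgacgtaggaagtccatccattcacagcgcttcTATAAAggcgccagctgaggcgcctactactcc
Capitals mark matches to 6 motifs that were searched on both strands in 300 bases, 250 before and 50 after the RefSeq start. For Irf8 they mark GAS motifs (TTCNNNGAA, the type of site that STAT proteins bind), which begin 171 and 153 bases upstream, and a TATA box (TATAAA) 31 bases upstream. GAS motifs were present in 8.3% of 32851 promoter windows, and among the 9 genes in Batf3 and Irf8. For Jun the capitals mark TGACATCA, the AP-1 variant known from the Jun promoter, 45 bases upstream, which 3.62% of windows held. For Fos they mark a TATA box 33 bases upstream. The letters TATAAA occurred at any place in 13.6% of windows. Among the 9 genes they also lay upstream for Irf4 and Irf8, and 1 base downstream of the start for Junb. The Batf stretch holds none of the 6 motifs, which also included TGANTCA (7.81% of windows, none of the 9 genes), TGACGTCA (1.79%, none) and an ISRE core, GAAA repeated after a gap of 2 bases (3.44%, Fosl2). A match describes letters in the window, not a bound site.

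**Figure D1:**
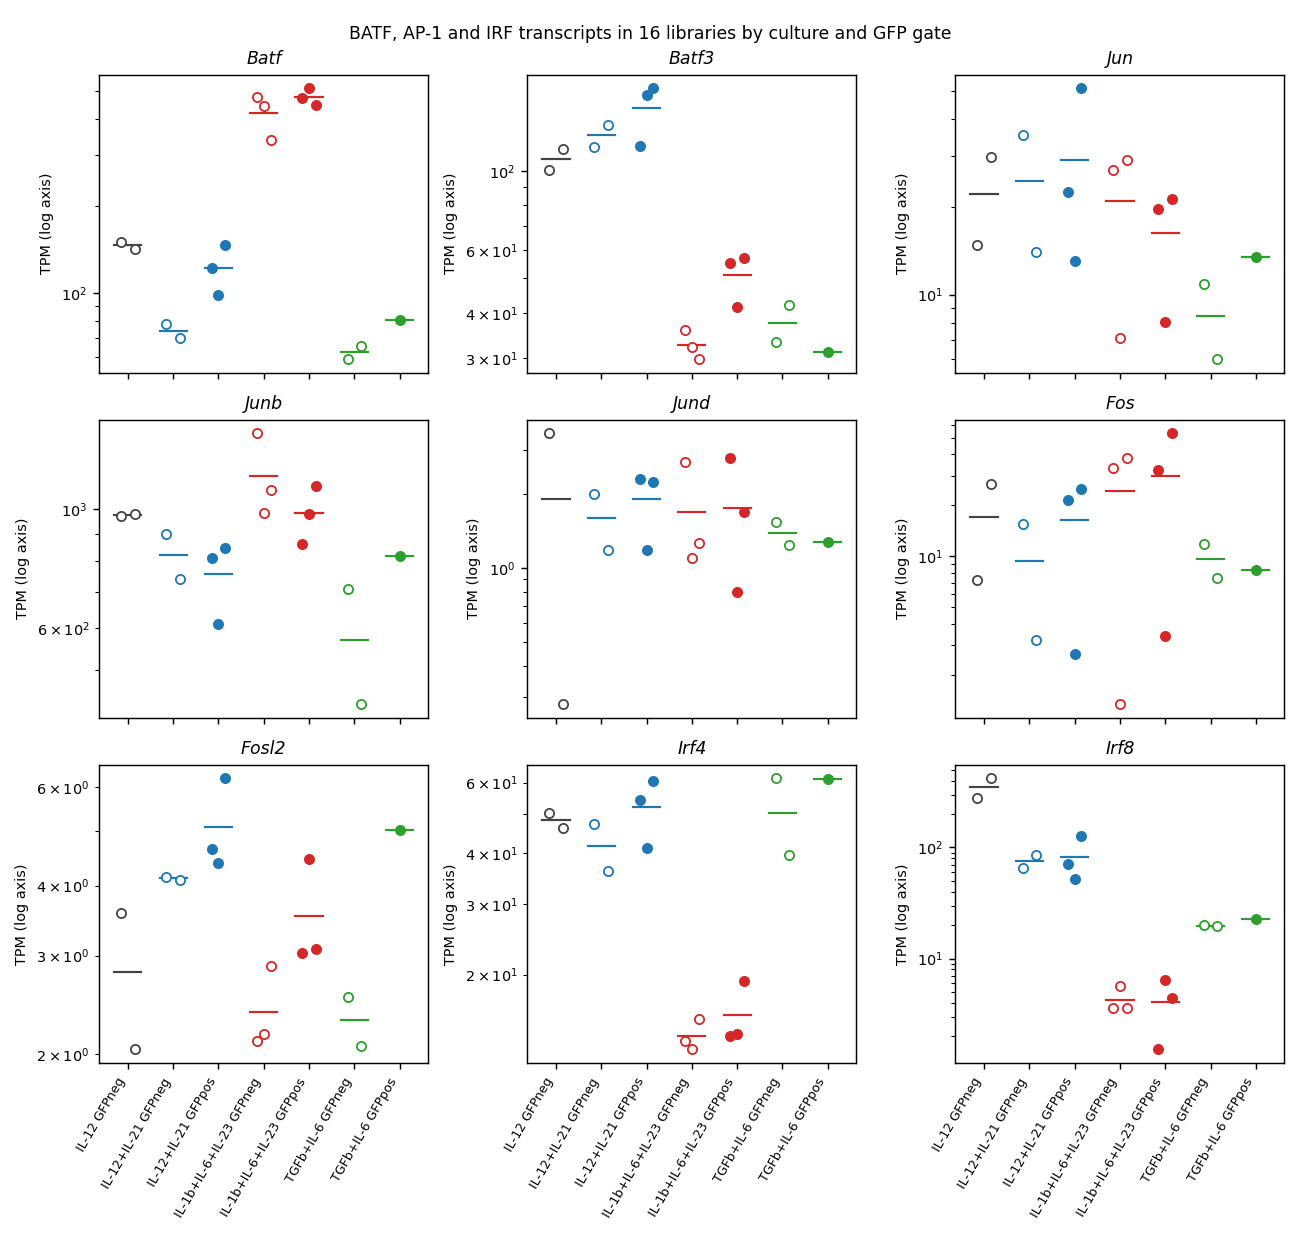
TPM of the 9 genes on log axes in the 16 libraries, by culture and gate; open circles are GFPneg libraries, filled circles GFPpos libraries, and lines group means. Batf lies between 337.66 and 511.21 TPM in the 6 IL-1b+IL-6+IL-23 libraries and between 59.16 and 150.62 TPM elsewhere, and Irf8 spans 1.52 to 419.36 TPM.

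Over the 7 groups, 5 of the 9 genes varied: Batf, Irf8, Batf3, Irf4 and Junb (limma's moderated F, Benjamini-Hochberg over all genes), where 24.9% of all genes passed. The adjusted p-values were 2.23e-08 for Batf, 9.33e-08 for Irf8, 1.18e-06 for Batf3, 1.37e-05 for Irf4 and 0.0246 for Junb. Junb lost its call when TGFb+IL-6 GFPneg replicate 2 was left out (adjusted p = 0.103) and without the filter on low values (0.0765). Fosl2 (0.0789), Jun (0.461), Fos (0.961) and Jund (0.996) did not pass.

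Batf was highest in the culture with IL-1b, IL-6 and IL-23. Its level was 478, 443 and 338 TPM in the GFPneg libraries of that culture (419 ± 72.9, mean ± SD, n = 3) and 474, 511 and 447 TPM in the GFPpos libraries (477 ± 32.4, n = 3). In IL-12 alone it was 151 and 142 TPM (147 ± 5.78, n = 2). With IL-12 and IL-21 it was 78.1 and 69.7 TPM in GFPneg cells and 122, 98.4 and 146 TPM in GFPpos cells, and with TGF-b and IL-6 it was 59.2 and 65.5 TPM in GFPneg cells and 80.8 TPM in the GFPpos library. The lowest of the 6 IL-1b+IL-6+IL-23 libraries was therefore above the highest of the other 10, and 0.876% of all genes were higher in that way. In the order of group means, both gates of IL-1b+IL-6+IL-23 came first and overlapped, and IL-12 overlapped IL-12+IL-21 GFPpos. The TGFb+IL-6 GFPpos, IL-12+IL-21 GFPneg and TGFb+IL-6 GFPneg groups, of 1 or 2 libraries each, followed.

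Irf4, the partner of BATF in Th17 differentiation, ran the other way. It was at 13.7, 13.0 and 15.5 TPM in IL-1b+IL-6+IL-23 GFPneg cells and at 14.1, 14.2 and 19.3 TPM in GFPpos cells. The other 10 libraries held 36.1 to 61.5 TPM: 50.4 and 46.3 in IL-12 alone, 47.2 and 36.1 in IL-12+IL-21 GFPneg, 54.2, 41.4 and 60.5 in IL-12+IL-21 GFPpos, 61.5 and 39.6 in TGFb+IL-6 GFPneg and 61.3 in TGFb+IL-6 GFPpos. The IL-1b+IL-6+IL-23 libraries did not overlap with the rest for either IRF gene, and 1% of all genes were lower in that way. The summed T cell markers separated the same libraries (at most 2176.7 against at least 2225 TPM), and their part in the IRF differences was not tested. Of the 8 markers 4 were lower and none higher for IL-1b+IL-6+IL-23 GFPpos against IL-12+IL-21 GFPpos, with a median of -0.76 against -0.15 for all genes. In GFPneg cells of that culture 2 were lower and 0 higher against IL-12 alone (median -0.41) and likewise against IL-12+IL-21 (-0.33). For TGFb+IL-6 GFPneg against IL-12 GFPneg 3 were lower and 1 higher (-0.60, against -0.33 for all genes). Among the 5 groups outside the IL-1b+IL-6+IL-23 culture the Irf4 levels of neighbours in the order overlapped, apart from the single TGFb+IL-6 GFPpos library at the top. Over the 16 libraries Pearson's r of log2(TPM + 1) was -0.89 for Batf and Irf4, which describes the separation of 1 culture from the others.

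Irf8 had the widest range of the 9 genes. It was at 278 and 419 TPM in IL-12 alone, at 65.4 and 85.9 TPM in the GFPneg cells of IL-12+IL-21 and at 71.0, 52.0 and 126 TPM in the GFPpos cells of IL-12+IL-21. With TGF-b and IL-6 the GFPneg libraries held 19.9 and 19.7 TPM and the GFPpos library 22.8 TPM. It was lowest with IL-1b, IL-6 and IL-23, at 3.62, 5.60 and 3.58 TPM in GFPneg cells and 1.52, 6.34 and 4.39 TPM in GFPpos cells. The 4 cultures thus formed 4 levels that did not overlap, a pattern that was not counted over all genes. Both IL-12 libraries were above the other 14, as was the case for 4.93% of all genes. Irf8 stood 5.51 to 9.07 times above Irf4 in IL-12 alone and 1.26 to 2.38 times above it in IL-12+IL-21, whereas it was 0.324 to 0.498 times Irf4 in TGFb+IL-6 and 0.108 to 0.446 times in IL-1b+IL-6+IL-23. In bulk libraries, fewer cells with a transcript and less of it per cell cannot be told apart. The B cell and myeloid markers named above, whose cells are known for Irf8, were at or near 0 in the same libraries: in IL-12 alone, where Irf8 was highest, they summed to at most 0.74 and 2.09 TPM.

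Batf3 followed IL-12. Its level was 100 and 115 TPM in IL-12 alone, 117 and 135 TPM in the GFPneg cells of IL-12+IL-21 and 117, 163 and 170 TPM in the GFPpos cells of IL-12+IL-21. The remaining 9 libraries held 29.8 to 56.9 TPM: 36.0, 32.2 and 29.8 for IL-1b+IL-6+IL-23 GFPneg, 55.2, 41.7 and 56.9 for its GFPpos cells, 33.2 and 42.1 in TGFb+IL-6 GFPneg and 31.2 in TGFb+IL-6 GFPpos. All 7 libraries with IL-12 were above the other 9, for Batf3 as for Irf8, and 1.25% of all genes were higher in that way. Those other 9 all had IL-6 and none of the 7 did, so the parts of IL-12 and IL-6 cannot be told apart. Dendritic cell markers, whose cells are known for Batf3, summed to 3.48 to 5.84 TPM in the libraries with IL-12 and to 2.9 to 12.7 TPM in the others. Batf stood 7.85 to 13.8 times above Batf3 in the IL-1b+IL-6+IL-23 libraries and 1.56 to 2.59 times above it with TGF-b and IL-6. In the IL-12 cultures the ratio of Batf to Batf3 was 0.518 to 1.5.

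**Figure D2:**
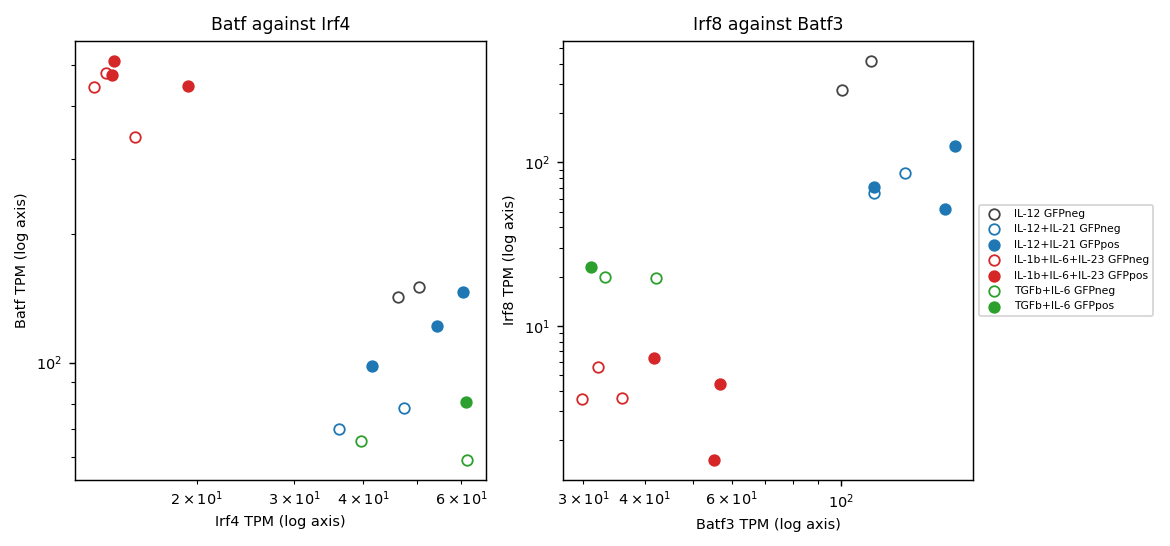
Batf against Irf4 (left) and Irf8 against Batf3 (right), TPM on log axes, 1 point for each of the 16 libraries. The 6 IL-1b+IL-6+IL-23 libraries, in red, lie at 13.04 to 19.33 TPM of Irf4, apart from the other 10 at 36.11 to 61.46.

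Among the JUN genes, which supply the partner of BATF, Junb made up 94.1% to 99.2% of the summed TPM of Jun, Junb and Jund in each library. Junb was at 1389, 986 and 1087 TPM in IL-1b+IL-6+IL-23 GFPneg cells, at 862, 981 and 1107 TPM in GFPpos cells and at 972 and 979 TPM in IL-12 alone. It was at 901 and 739 TPM in the GFPneg cells of IL-12+IL-21, 811, 611 and 846 TPM in GFPpos cells, 708 and 431 TPM in TGFb+IL-6 GFPneg cells and 819 TPM in the GFPpos library. In the order of group means each group overlapped the next, apart from IL-12 alone and IL-12+IL-21 GFPneg. Jun ranged from 6.01 to 51.1 TPM. Its mean was lowest in TGFb+IL-6 GFPneg, which lay below its neighbour, the TGFb+IL-6 GFPpos library, but overlapped both gates of IL-1b+IL-6+IL-23. Other neighbours overlapped for Jun. Jund ranged from 0.28 to 3.52 TPM, with every neighbour overlapping.

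Of the FOS genes, Fos ranged from 1.34 to 53.4 TPM and Fosl2, a FOS family subunit known to restrain parts of the Th17 programme, from 2.04 to 6.22 TPM. Fosl2 means were 5.09 ± 0.99 TPM in the GFPpos cells of IL-12+IL-21 (n = 3), 5.03 TPM in the TGFb+IL-6 GFPpos library and 3.53 ± 0.82 TPM in the GFPpos cells from the IL-1b+IL-6+IL-23 culture (n = 3). GFPneg means were 4.12, 2.30 and 2.38 TPM in the same cultures, and 2.81 TPM in IL-12 alone.

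The GFPneg groups of all 4 cultures were compared first, since only this gate has IL-12 alone. Changes are differences of log2(TPM + 1), which understate the change of low genes, with limma's standard error and adjusted p. The comparisons share libraries, so their results are not independent.

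Against IL-12 alone, the IL-1b+IL-6+IL-23 culture changed 4 of the 9 genes, where 7.01% of all genes were called. Batf rose by 1.50 ± 0.19 (adjusted p = 7.91e-05), while Batf3 fell by 1.69 ± 0.21 (7.40e-05), Irf4 fell by 1.71 ± 0.24 (0.000254) and Irf8 fell by 6.04 ± 0.40 (8.41e-08), which is 81.7 times lower by the ratio of mean TPM. Against IL-12+IL-21 GFPneg cells (3.41% called) the same 4 genes were called: Batf rose by 2.48 ± 0.19 (7.94e-07), Batf3 fell by 1.91 ± 0.21 (3.22e-05), Irf4 fell by 1.49 ± 0.24 (0.00153) and Irf8 fell by 3.87 ± 0.40 (2.15e-05).

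TGF-b with IL-6, against IL-12 alone, changed 4 of the 9 genes, all lower, where 20.9% of all genes were called and 15.8% were lower (488 higher and 1512 lower, against 925 and 745 with median-ratio scaling). Batf fell by 1.22 ± 0.20 (adjusted p = 0.000609), Batf3 fell by 1.50 ± 0.23 (0.000284), Irf8 fell by 4.04 ± 0.44 (1.19e-05) and Junb fell by 0.82 ± 0.23 (0.0207). Junb was not called with libraries scaled by median ratios (fell by 0.38, adjusted p = 0.198), a scaling that moved the median of all genes by 0.33 here, nor without the filter (0.0537), with only these 2 groups fitted (0.12), without either IL-12 library (0.0824 and 0.0845) or without TGFb+IL-6 GFPneg replicate 2 (0.268). Irf4 differed by 0.03 ± 0.26 (95% interval -0.52 to 0.59). Against IL-12+IL-21 GFPneg cells (6.82% called) Batf3 fell by 1.72 ± 0.23 (0.000129) and Irf8 fell by 1.87 ± 0.44 (0.0158). The Irf8 call was lost when any of the 4 libraries was left out (adjusted p 0.0583 to 0.103) and without the filter (0.0574). Junb was at -0.56 ± 0.23 (0.171), and without TGFb+IL-6 GFPneg replicate 1 at -0.92 (0.0412).

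Between the 2 cultures with IL-6, TGFb+IL-6 GFPneg against IL-1b+IL-6+IL-23 GFPneg, 4 of the 9 genes were called (15.4% of all genes). Batf fell by 2.72 ± 0.19 (adjusted p = 1.20e-07), which is 6.73 times lower with TGF-b by mean TPM, and Junb fell by 1.05 ± 0.21 (0.00285). Irf4 rose by 1.74 ± 0.24 (9.85e-05) and Irf8 rose by 2.00 ± 0.40 (0.00287). Batf3 differed by 0.19 ± 0.21 (95% interval -0.25 to 0.64). The Junb call was lost without TGFb+IL-6 GFPneg replicate 2 (0.0941) and with only these 2 groups fitted (0.0508).

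Adding IL-21 to IL-12 changed 2 of the 9 genes in GFPneg cells, where 0.761% of all genes were called. Batf fell by 0.98 ± 0.20 (adjusted p = 0.0325), from a mean of 147 to 73.9 TPM, and Irf8 fell by 2.17 ± 0.44 (0.0317), from 348 to 75.7 TPM. Both calls were lost when any of the 4 libraries of these 2 groups was left out, which leaves a group with 1 library. Batf was not called with median-ratio scaling (-0.85, 0.0718), nor Irf8 with a pseudocount of 0.1 (0.0706) or without the filter (0.087). Neither was called with only these 2 groups fitted (0.326 for Batf and 0.28 for Irf8). Batf3 differed by 0.22 ± 0.23 (95% interval -0.26 to 0.71), Irf4 by -0.22 ± 0.26 (-0.77 to 0.33) and Junb by -0.26 ± 0.23 (-0.75 to 0.23).

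The GFPpos groups gave the same comparisons in cells that had switched the reporter on. IL-1b+IL-6+IL-23 GFPpos against IL-12+IL-21 GFPpos changed 4 of the 9 genes (4.96% of all genes called): Batf rose by 1.97 ± 0.17 (adjusted p = 1.14e-06), Batf3 fell by 1.52 ± 0.19 (6.51e-05), Irf4 fell by 1.65 ± 0.21 (0.000117) and Irf8 fell by 4.08 ± 0.36 (1.91e-06). Junb was at 0.39 ± 0.19 (0.335), and at 0.60 (0.0354) with median-ratio scaling. The single TGFb+IL-6 GFPpos library was compared on the assumption that it varies like the other groups. Against IL-12+IL-21 GFPpos (4.91% called) Batf3 fell by 2.21 ± 0.26 (6.39e-05), and Irf8 was at -1.72 ± 0.51 with an adjusted p of 0.068. It was called without IL-12+IL-21 GFPpos replicate 2 (0.0374), with a pseudocount of 5 (0.0238) and with array weights (0.0468). Against IL-1b+IL-6+IL-23 GFPpos (5.39% called) Batf fell by 2.55 ± 0.23 (6.95e-06), Irf4 rose by 1.90 ± 0.30 (0.000964) and Irf8 rose by 2.36 ± 0.51 (0.0108). With only the libraries of these 2 groups fitted, Irf4 (0.0594) and Irf8 (0.164) were not called.

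**Figure D3:**
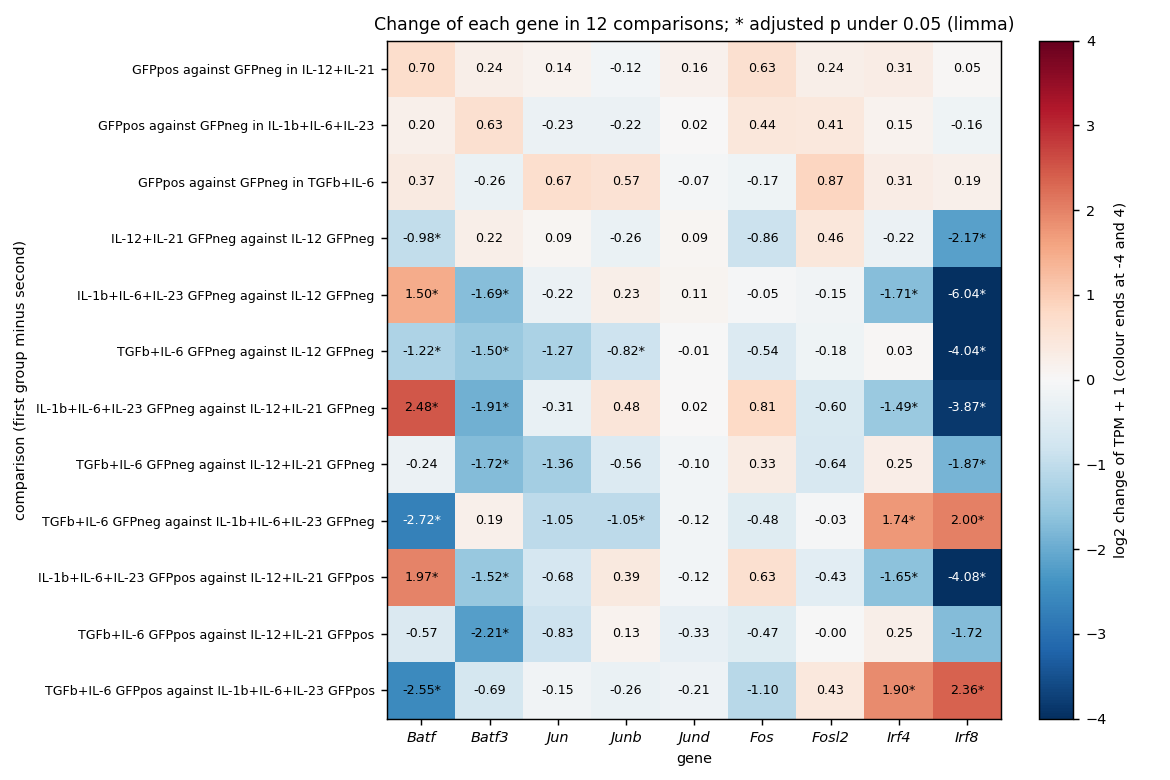
Log2 change of TPM + 1 (first group minus second) of the 9 genes in the 12 comparisons; the colour scale ends at -4 and 4, and a star marks an adjusted p under 0.05 in limma. Stars sit on Batf, Batf3, Irf4 and Irf8 in comparisons between cultures, on Junb in 2 of them, and on no gene in the 3 comparisons of GFPpos with GFPneg cells.

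Within a culture, limma called none of the 9 genes in GFPpos against GFPneg cells (with 0.156% of all genes called for IL-12+IL-21, 0.427% for IL-1b+IL-6+IL-23 and 0.323% for TGFb+IL-6). In each culture 1 of the 9 had an unadjusted p under 0.05, as had 1392, 809 and 1617 of all genes. In IL-12+IL-21 this was Batf, at 122, 98.4 and 146 TPM in GFPpos cells against 78.1 and 69.7 in GFPneg cells. The difference was 0.70 ± 0.19 (95% interval 0.31 to 1.09, adjusted p = 0.112). In this culture the median change of all genes was 0.24 before and 0.01 after median-ratio scaling, and Batf was then at 0.42 (0.393). With array weights, which give noisier libraries less weight, Batf was called (0.70, adjusted p = 0.0464).

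Batf3 was this gene for IL-1b+IL-6+IL-23, at 55.2, 41.7 and 56.9 TPM in GFPpos against 36.0, 32.2 and 29.8 TPM in GFPneg cells (0.63 ± 0.19, 95% interval 0.23 to 1.02, adjusted p = 0.273). In TGFb+IL-6 it was Fosl2, at 5.03 TPM in the GFPpos library against 2.53 and 2.07 TPM (0.87 ± 0.37, interval 0.09 to 1.66, adjusted p = 0.255). For Irf4 the differences were 0.31, 0.15 and 0.31 in the 3 cultures, and for Irf8 0.05, -0.16 and 0.19. With median-ratio scaling they were 0.03, 0.09 and -0.17 for Irf4 and -0.24, -0.23 and -0.27 for Irf8, so that the sign turned for Irf4 in TGFb+IL-6 and for Irf8 there as well as in IL-12+IL-21. The reporter effect itself was tested for a difference between cultures in 3 interactions, and none of the 9 genes was called (0%, 0.0104% and 0.0834% of all genes; 474, 415 and 899 genes had an unadjusted p under 0.05). Of the 9, Batf3 and Junb had an unadjusted p under 0.05 in the interaction of TGFb+IL-6 with IL-1b+IL-6+IL-23 (-0.88 ± 0.34, adjusted p = 0.471, and 0.79 ± 0.34, adjusted p = 0.507).

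**Figure D4:**
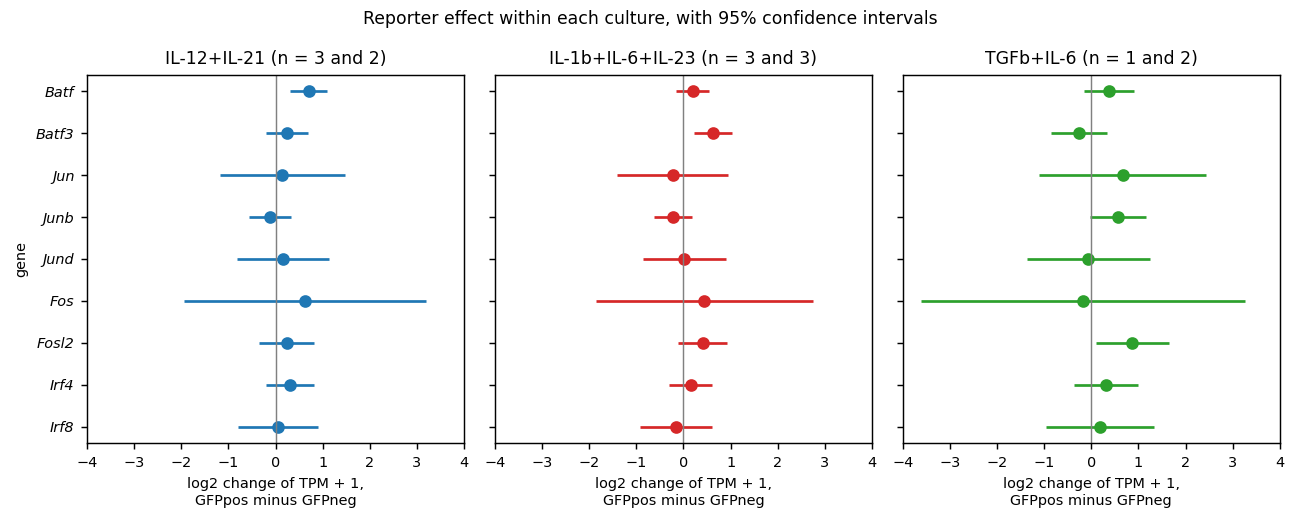
Difference of log2(TPM + 1) between GFPpos and GFPneg cells (x axis) for the 9 genes in 3 cultures; points are limma's estimates and bars 95% confidence intervals, with the numbers of GFPpos and GFPneg libraries in the titles. The intervals of Fos are the widest, from -1.94 to 3.20 in IL-12+IL-21.

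Fos and Jun, the classical immediate early AP-1 genes that stimulated cells switch on within minutes and then silence, spread widely within groups. Among the GFPneg cells from the IL-1b+IL-6+IL-23 culture Fos was at 33.3 TPM in replicate 1, 1.34 in replicate 2 and 38.0 in replicate 3, and in GFPpos cells at 32.2, 3.38 and 53.4 TPM. For IL-12+IL-21 it was at 15.5 TPM in replicate 1 and 3.21 in replicate 2 of the GFPneg cells, and at 21.5, 2.65 and 25.2 TPM in the GFPpos cells. In IL-12 alone it was at 7.29 TPM in replicate 2 and 26.8 in replicate 3, and in TGFb+IL-6 GFPneg cells at 11.9 TPM in replicate 1 and 7.50 in replicate 2. The single TGFb+IL-6 GFPpos library, a replicate 1, held 8.28 TPM. The library numbered 2 was the lowest in 6 of 6 groups, for Fos and for Jun, and all 6 such libraries (1.34 to 7.5 TPM of Fos) were below the other 10 (8.28 to 53.4 TPM). That library was also the lowest in 5 of 6 groups for Junb and Jund, 4 for Irf4, 3 for Fosl2 and Irf8, and 2 for Batf and Batf3. Neither pattern was counted over all genes.

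Jun was at 26.7, 7.09 and 29.0 TPM in replicates 1, 2 and 3 of IL-1b+IL-6+IL-23 GFPneg, 19.7, 8.07 and 21.2 in GFPpos, and 22.4, 13.0 and 51.1 in IL-12+IL-21 GFPpos. It was at 35.1 TPM in replicate 1 and 14.1 in replicate 2 of IL-12+IL-21 GFPneg, at 14.8 in replicate 2 and 29.5 in replicate 3 of IL-12 alone, at 10.8 and 6.01 in replicates 1 and 2 of TGFb+IL-6 GFPneg and at 13.5 in TGFb+IL-6 GFPpos. Unlike Fos, its replicate 2 libraries (6.01 to 14.8 TPM) overlapped the others (10.8 to 51.1 TPM) across groups. After this pattern was seen, replicate 2 was compared with the other numbers within groups across all genes, and 0.0313% of genes, 3 of 9592, were called. They were Fos (fell by 2.52 ± 0.31, adjusted p = 0.0114), Jun (fell by 1.26 ± 0.18, 0.0224) and Zfp36, an immediate early gene for an RNA-decay protein (fell by 1.03 ± 0.16, 0.0391). An F test over the replicate number called 50 genes (0.521%), with Fos (0.0041) and Jun (0.0068) among them and Klf6, Zfp36, Atf3 and Dusp1 from the 19 immediate early genes tested. Fos and Jun had prompted both tests on the replicate number, so their p-values restate the pattern already seen and do not test it. The other 7 members were not called in either test: Junb was at -0.29 ± 0.10 (adjusted p = 0.304) and Batf at -0.02 ± 0.11 (0.962). Of the 19 immediate early genes 11 were lower in replicate 2, with a median of -0.21, against a median of -0.12 and 6923 of 9592 lower for all genes. What the replicate number stands for is not given in the labels, and its part in these differences was not tested further.

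**Figure D5:**
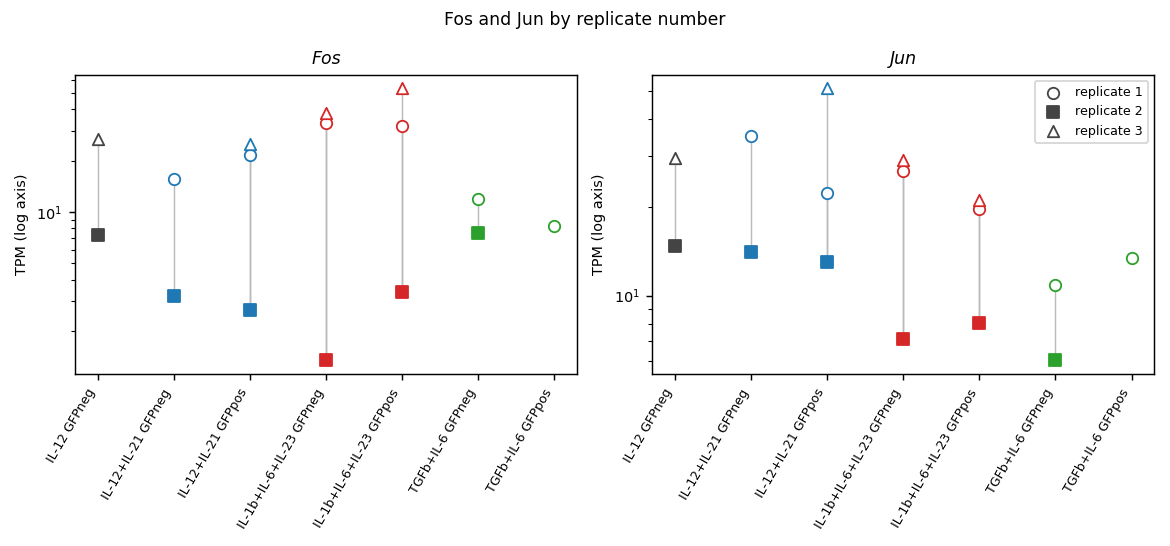
Fos (left) and Jun (right), TPM on log axes, in each group by replicate number; filled squares are replicate 2, open circles replicate 1 and open triangles replicate 3. In every group with more than 1 library the square is the lowest point, at 1.34 to 7.5 TPM for Fos.

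The genes most like each member over the 16 libraries, among those with a mean of at least 5 TPM, were taken by Pearson's r of log2(TPM + 1). Batf was closest to Psma6, a proteasome subunit (r = 0.97), and Idi1, an enzyme of isoprenoid synthesis (0.95). Psma6 was at 818 ± 104 TPM in IL-1b+IL-6+IL-23 GFPneg cells (n = 3) and at 397 ± 20.2 TPM in IL-12 alone (n = 2). Batf3 was closest to Il12rb2, the signalling chain of the IL-12 receptor (0.95), which was at 178 ± 14.2 TPM in the GFPpos cells of IL-12+IL-21 (n = 3) and 23.6 ± 3.60 TPM in those from the IL-1b+IL-6+IL-23 culture (n = 3), and to Etv5 (0.95). Irf4 was closest to Il2rb, a chain of the IL-2 receptor (0.97), and Lta, the cytokine lymphotoxin alpha (0.96), and Irf8 to the chemokine gene Ccl4 (0.96) and Tspan13 (0.95). Ccl4 was at 1710 ± 541 TPM in IL-12 alone (n = 2) and 5.26 ± 0.88 TPM in the GFPpos cells from the IL-1b+IL-6+IL-23 culture (n = 3). Junb was closest to Map4k1 (0.93), Fosl2 to Rac1 (0.92), Jun to Atf3 (0.90), Fos to Klf6 (0.76) and Jund to Btg2 (0.72). These correlations describe 16 libraries that share cultures and are given without a test.

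Among related genes, 3 of 14 other AP-1 and bZIP genes tested varied between groups by the F test, against 24.9% of all genes. Maf, a bZIP factor of cytokine genes, had a mean of 8.76 TPM in TGFb+IL-6 GFPneg cells and 0.41 TPM in IL-1b+IL-6+IL-23 GFPneg cells (2.74 ± 0.37, adjusted p = 9.14e-05). Crem fell by 1.06 ± 0.19 from IL-12 to IL-1b+IL-6+IL-23 in GFPneg cells (0.00175), and Atf4 rose by 0.89 ± 0.20 (0.0121). Of the 7 other IRF genes 2 varied, and they moved oppositely in that comparison: Irf1, induced by interferon gamma, fell by 1.70 ± 0.28 (0.00124), and Irf7, a factor of the interferon response, rose by 3.35 ± 0.35 (1.29e-05). Irf7 was at 57.0 ± 9.04 TPM in IL-1b+IL-6+IL-23 GFPneg cells (n = 3) and 5.47 ± 4.45 TPM in IL-12 alone (n = 2), so that within 1 culture Irf7 was high where Irf1, Irf4 and Irf8 were low. Low Irf1 was not particular to that culture. In TGFb+IL-6 it was at 9.42 TPM in GFPneg cells (mean) and 12.95 TPM in the GFPpos library, with Irf7 at 6.65 and 5.31 TPM.

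Upstream of AP-1, 4 of 15 kinase and NFAT genes varied, close to the 24.9% of all genes that passed the F test. Map3k8, a kinase of the ERK cascade, fell by 1.60 ± 0.26 from IL-12 to TGFb+IL-6 in GFPneg cells (0.000471), and Nfatc1 fell by 0.97 ± 0.29 (0.0278), but was not called with median-ratio scaling (-0.62, 0.105). Of the immediate early genes 6 of 19 varied, against the same 24.9% of all genes. Cd69 and Nr4a1, which mark recent receptor signalling, were among them. Egr1, Egr2 and Egr3 of the same list were not (adjusted p of the F test 0.442, 0.193 and 0.478). From IL-1b+IL-6+IL-23 to TGFb+IL-6 in GFPneg cells 5 of the 19 were lower and 0 higher. Of all genes 15.4% were called there, 463 higher and 1015 lower, against 838 and 729 with median-ratio scaling. In that comparison Cd69 fell by 2.47 ± 0.23 (2.92e-06) and Nr4a1 fell by 2.31 ± 0.28 (3.76e-05). Myc fell by 1.10 ± 0.19 there (0.000849). Of the genes known as targets or partners of BATF and IRF4, 19 of 21 tested varied, against 24.9% of all genes. This list holds Il23r, which the sort fixes, and it was drawn up with results of these libraries known. Il17f, a Th17 cytokine, was at 1999 ± 229 TPM in IL-1b+IL-6+IL-23 GFPneg cells (n = 3) and at 4148 ± 843 TPM in TGFb+IL-6 GFPneg cells (n = 2), a rise of 1.04 ± 0.34 (0.0477), while Batf was 6.73 times lower in the latter. Il17a, the other IL-17 cytokine of Th17 cells, was at 837 ± 316 TPM in GFPpos and 104 ± 32.6 TPM in GFPneg cells from the IL-1b+IL-6+IL-23 culture (n = 3 each; 2.97 ± 0.33, adjusted p = 0.000649), while Batf in the same cells was at 477 and 419 TPM.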

How the data were processed

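RNA was sequenced with SMART-Seq2, per the labels' protocols. The deposited TPM values were made by the authors with Trimmomatic 0.32, Bowtie2 2.2.9, RSEM 1.2.31 and GRCm38, per the submitters' processing notes; the annotation is not given in the sources used here. Libraries with at least 7000 genes at 1 TPM or more were kept, and genes with at least 1 TPM in at least 3 of them were tested. Group means of log2(TPM + 1) were fitted with limma 3.58.1 (R 4.3.3, empirical Bayes with a trend), and p-values were adjusted by Benjamini-Hochberg over all 9592 genes (threshold 0.05), for 12 comparisons, 3 interactions and an F over the groups. The steps were tested on simulated data. All 9 members are named, with up to 3 genes per list with the smallest F p-values and the 2 genes most correlated with each member. Members and lists were chosen with earlier results of these data known. Alternatives were other pseudocounts, filters, scalings, weights, libraries and a replicate block. TPM keeps no read depth, so the precision of low values is unknown.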

Additional observations from a re-analysis of the deposited data

How the results depend on the processing

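Of 28 called changes of single genes, those of Batf, Batf3, Irf4 and Irf8 between IL-1b+IL-6+IL-23 and the IL-12 cultures kept direction and call under every alternative except those that brought back libraries with few genes. With all 21 libraries, 0 genes of the 9 were called in any of the 9 culture comparisons and in the F test, against 5 in the F test of the 16 libraries. There the changes of Batf3 (0.41) and Irf4 (0.31) reversed for IL-1b+IL-6+IL-23 GFPneg against IL-12+IL-21 GFPneg, as did Irf4 for TGFb+IL-6 against IL-1b+IL-6+IL-23 in GFPneg (-0.14) and GFPpos cells (-1.26). With the 18 libraries that had at least 4000 genes, an alternative chosen after seeing the data, the F test called 3 genes, IL-1b+IL-6+IL-23 GFPneg against IL-12 GFPneg 2, both IL-1b+IL-6+IL-23 GFPpos against IL-12+IL-21 GFPpos and TGFb+IL-6 GFPpos against IL-1b+IL-6+IL-23 GFPpos 1, and the 5 other GFPneg comparisons 0. Junb reversed to 0.65 in TGFb+IL-6 GFPneg against IL-12 GFPneg. The cause was not tested. For the fits of 21 and 18 libraries the share of all genes called was not counted.

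For IL-12+IL-21 GFPneg against IL-12 GFPneg the count of 2 became 1 with a pseudocount of 0.1, no filter or median-ratio scaling, 0 with only the compared libraries, and 0 whenever a single library was left out. For TGFb+IL-6 GFPneg against IL-12+IL-21 GFPneg the 2 became 1 without a filter and 1 to 2 with single libraries left out. For TGFb+IL-6 GFPpos against IL-12+IL-21 GFPpos the 1 became 2 with a pseudocount of 5 or array weights, and 1 to 2 with single libraries left out, 2 being without IL-12+IL-21 GFPpos replicate 2. TGFb+IL-6 GFPpos against IL-1b+IL-6+IL-23 GFPpos fell from 3 to 1 with only the compared libraries, and array weights raised GFPpos against GFPneg in IL-12+IL-21 from 0 to 1. Leaving out libraries with most of their TPM in ribosomal protein genes removed none of the 16, and the single TGFb+IL-6 GFPpos library could not be left out.

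Same-numbered libraries correlated at -0.0861 to 0.265 in their deviations from group means (31 pairs, median 0.0425). Libraries with different numbers correlated at -0.218 to 0.111 (62 pairs, median -0.0274). Of 15 libraries, 12 correlated best with their own number. Whether same-numbered libraries are pairs is not known from the labels, and the main fits did not pair them. Median-ratio scaling moved the median of all genes by over 0.1 in 6 of the 12 comparisons: by -0.23 for GFPpos against GFPneg in IL-12+IL-21, by -0.37 for the same in TGFb+IL-6, by 0.33 for TGFb+IL-6 GFPneg against IL-12 alone, by 0.23 against either other GFPneg group, and by 0.17 for IL-1b+IL-6+IL-23 GFPpos against IL-12+IL-21 GFPpos. With the replicate block no count of called members moved by over 1.5 times, and Jun passed the F test (F = 5.45, adjusted p = 0.0235).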

Other observations

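Values in the 5 libraries left out enter no comparison. IL-12 GFPneg replicate 1, with 4109 genes at 1 TPM or more, held Batf at 28.0 TPM, Batf3 at 161, Irf4 at 0.89, Irf8 at 19.6 and Junb at 45.3 TPM. Its Batf3 lay within the range of the kept IL-12 cultures, and its Irf4, Irf8 and Junb lay below every kept library with IL-12. TGFb+IL-6 GFPpos replicate 2, with 5608 genes, held Batf at 22.7, Batf3 at 44.9, Irf4 at 4.44 and Junb at 86.8 TPM. TGFb+IL-6 GFPpos replicate 3 held Batf at 470 TPM, Irf8 at 127, Fos at 177 and Junb at 1427 TPM, with the other 5 members listed at 0. Its Batf lay above the kept libraries of both TGFb+IL-6 groups (59.2 to 80.8 TPM), and its Irf8 did too (19.7 to 22.8 TPM). IL-12+IL-21 GFPneg replicate 3 held Irf8 at 228 and Junb at 973 TPM, with the other 7 listed at 0, and in TGFb+IL-6 GFPneg replicate 3 all 9 were listed at 0.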
